A study of Rattus norvegicus with 15 samples.

Results

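The extracellular protease genes examined here, in cultures labelled as rat brain microvascular endothelial cells (BMECs), comprised the matrix metalloproteinases Mmp2, Mmp3 and Mmp14, the tissue inhibitors Timp1, Timp2 and Timp3, the urokinase gene Plau with its receptor Plaur, and Adam8. They were chosen by name, with earlier results of these data known. For each gene, the FPKM values (fragments per kilobase of transcript scaled to the mapped fragments of the library) of its annotated transcripts, and of unnamed transcripts in a locus that held no other gene name, were summed in each library. This gave 9 of the 37367 genes in the table, and 8 of the 9 passed a filter of a mean of at least 0.5 FPKM over the 15 libraries. The poly-A RNA of primary BMECs from Spraque-Dawley rat littermates of both sexes, aged 2 to 3 weeks, was sequenced. There were 5 groups of 3 libraries: a control culture of 12 h that received no radiation, and 4 groups exposed to x-rays from a linear accelerator, at 5 Gy or at 20 Gy, with RNA taken at 12 h or at 24 h. An unexposed 24 h culture was not analysed here, so at 24 h the time after exposure and the time in culture cannot be told apart. The labels call the libraries biological replicates but do not tie each to its own litter or culture, and p-values measure the spread between these libraries.

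Matrix metalloproteinases are zinc enzymes, made as inactive proforms, that cut collagens, laminins and other proteins of the extracellular matrix, and TIMPs block them by binding the active site. In the brain they are best known for cutting the basement membrane and the tight junctions of the blood-brain barrier. Urokinase cuts plasminogen to plasmin, which cuts fibrin and matrix and activates metalloproteinase proforms, and its receptor holds it at the cell surface. ADAM8 is a membrane-anchored metalloprotease that sheds surface proteins.

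The depth of the libraries, read from the steps between low FPKM values, was 5.44 to 7.49 gigabases of aligned sequence. The label of the cells was compared with marker genes. Of 16 endothelial markers in the table, 6 had a mean of at least 0.5 FPKM and 1 (Slc2a1, a glucose transporter that other cells also use) a mean of at least 10. The others of these 6 were Flt1, Ocln, Egfl7, Eng and Kdr, which reached at most 5.48, 2.65, 2.83, 12.0 and 0.866 FPKM. Eng was listed at 0 in 5 libraries. Tie1 and Emcn were listed at 0 in all 15 libraries, and Cdh5, Tek and Vwf reached at most 0.275, 0.385 and 0.110 FPKM. Of 10 fibroblast markers, 9 had a mean of at least 10 FPKM, while Postn was listed at 0 in 11 libraries. The sum of the 10 was 2372 to 2664 FPKM in the control group, 1848 to 2276 at 12 h and 876 to 1034 at 24 h. Most of that fall lay in 3 collagens: the means at 24 h after 5 Gy and 20 Gy were 27.0 and 31.4 FPKM for Col1a1 (controls, 516), 22.4 and 30.7 for Col1a2 (controls, 414) and 26.9 and 36.6 for Col3a1 (controls, 535). Fbln1 (controls, 502) stood at 581 and 567 FPKM, and Pdgfra (controls, 52.1) at 60.8 and 51.6, so the sum does not stand for the whole list. The sum of 10 pericyte and smooth muscle markers was 92.2 to 100.5 FPKM in the controls and 40.8 to 68.1 at 24 h. Pdgfrb (controls, 44.5) fell to 18.2 and 11.7 FPKM, and Cspg4 (controls, 14.7) to 6.96 and 6.59. Tagln (controls, 36.0) stood at 25.6 and 36.6 FPKM, while Myh11 (controls, 0.0608) rose to 1.29 and 1.18 and Notch3 (controls, 0.153) to 0.330 and 0.572. That sum does not stand for its whole list either. The sum of 11 heat shock genes was 331 to 425 FPKM in the control and 12 h groups, 2286 to 3071 at 24 h after 5 Gy and 7966 to 9672 at 24 h after 20 Gy. These sums moved with the 24 h groups, and their part in the results at 24 h was not tested. In bulk RNA, fewer cells of a type and less RNA per cell cannot be told apart.

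Promoter windows, from 250 bases before to 50 bases after the transcription start, were taken from RefSeq on the assembly GRCr8 and were matched by symbol for 7 of the 9 genes, without Mmp2 and Mmp14. They were searched on both strands for the AP-1 motif TGANTCA, the NF-kB motif, the GC box GGGCGG and the TATA box TATAAA. The windows are shown for the genes whose level changed in some comparison, Adam8, Timp1 and Plau, and for Plaur, the receptor that pairs with Plau. They are read 5′ to 3′ in the direction of the gene, and capitals mark the motifs found.
Adam8 promoter, chr1:204218273-204218572, minus strand: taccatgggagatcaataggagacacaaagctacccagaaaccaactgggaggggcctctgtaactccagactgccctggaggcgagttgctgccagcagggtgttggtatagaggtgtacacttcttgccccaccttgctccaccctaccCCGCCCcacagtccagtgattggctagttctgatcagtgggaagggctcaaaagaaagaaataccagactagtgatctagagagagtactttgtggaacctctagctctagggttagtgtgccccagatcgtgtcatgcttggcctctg
Timp1 promoter, chrX:3771073-3771372, minus strand: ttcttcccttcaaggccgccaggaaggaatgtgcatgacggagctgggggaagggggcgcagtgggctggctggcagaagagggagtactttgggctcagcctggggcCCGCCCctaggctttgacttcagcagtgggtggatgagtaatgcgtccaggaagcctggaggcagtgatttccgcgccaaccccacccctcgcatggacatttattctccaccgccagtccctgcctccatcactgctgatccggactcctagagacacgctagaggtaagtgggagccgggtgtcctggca
Plau promoter, chr15:3511938-3512237, minus strand: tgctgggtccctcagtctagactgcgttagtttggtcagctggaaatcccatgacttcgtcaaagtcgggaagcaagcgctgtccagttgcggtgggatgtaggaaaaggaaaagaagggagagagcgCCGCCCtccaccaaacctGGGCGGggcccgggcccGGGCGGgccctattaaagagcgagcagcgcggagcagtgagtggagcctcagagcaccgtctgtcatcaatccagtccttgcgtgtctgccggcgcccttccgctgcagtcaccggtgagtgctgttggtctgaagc
Plaur promoter, chr1:89181113-89181412, plus strand: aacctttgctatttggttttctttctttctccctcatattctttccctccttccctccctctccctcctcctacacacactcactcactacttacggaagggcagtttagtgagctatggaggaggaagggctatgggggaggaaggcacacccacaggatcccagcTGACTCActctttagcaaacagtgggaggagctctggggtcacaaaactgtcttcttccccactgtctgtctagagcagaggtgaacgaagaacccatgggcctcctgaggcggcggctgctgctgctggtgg
The Plaur window held an AP-1 motif that began at position -83 from the start, and no other motif. The Adam8 and Timp1 windows held a GC box on the opposite strand, at -99 and -142. The Plau window held 3 GC boxes, at -122, -104 and -87. Among the windows not shown, Mmp3 held an AP-1 motif at -71 and a TATA box at -32, and Timp2 and Timp3 held GC boxes alone. None of these motifs overlapped another. Of 33469 rat promoter windows of the same length, 7.33% held the AP-1 motif, 1.53% the NF-kB motif, 33.1% the GC box and 14.2% the TATA box. A match gives only the letters, not a bound site. Only exact matches were searched, so sequences that differ from a motif by a base are not marked.

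In the control group the levels, which FPKM gives per length, spanned a wide range. Timp2 was highest at 435 ± 142 FPKM (SD, n = 3, as for all values below). Mmp14 at 131 ± 20.9 FPKM and Timp1 at 129 ± 27.8 FPKM followed, with overlapping libraries. Mmp2 stood at 91.3 ± 0.944 FPKM, below every control library of Mmp14 and Timp1. Timp3 at 29.9 ± 1.64 FPKM, Plaur at 3.03 ± 0.675 FPKM and Plau at 0.884 ± 0.117 FPKM came next, each without overlap with its neighbours. Annotated Adam8 was listed at 0 in the control libraries, and both annotated transcripts of Mmp3, a stromelysin, were listed at 0 in all 15 libraries. Hspa8, a gene that every cell uses, was also listed at 0 in all 15, so an exact 0 in this table may be a failed estimate.

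**Figure D1:**
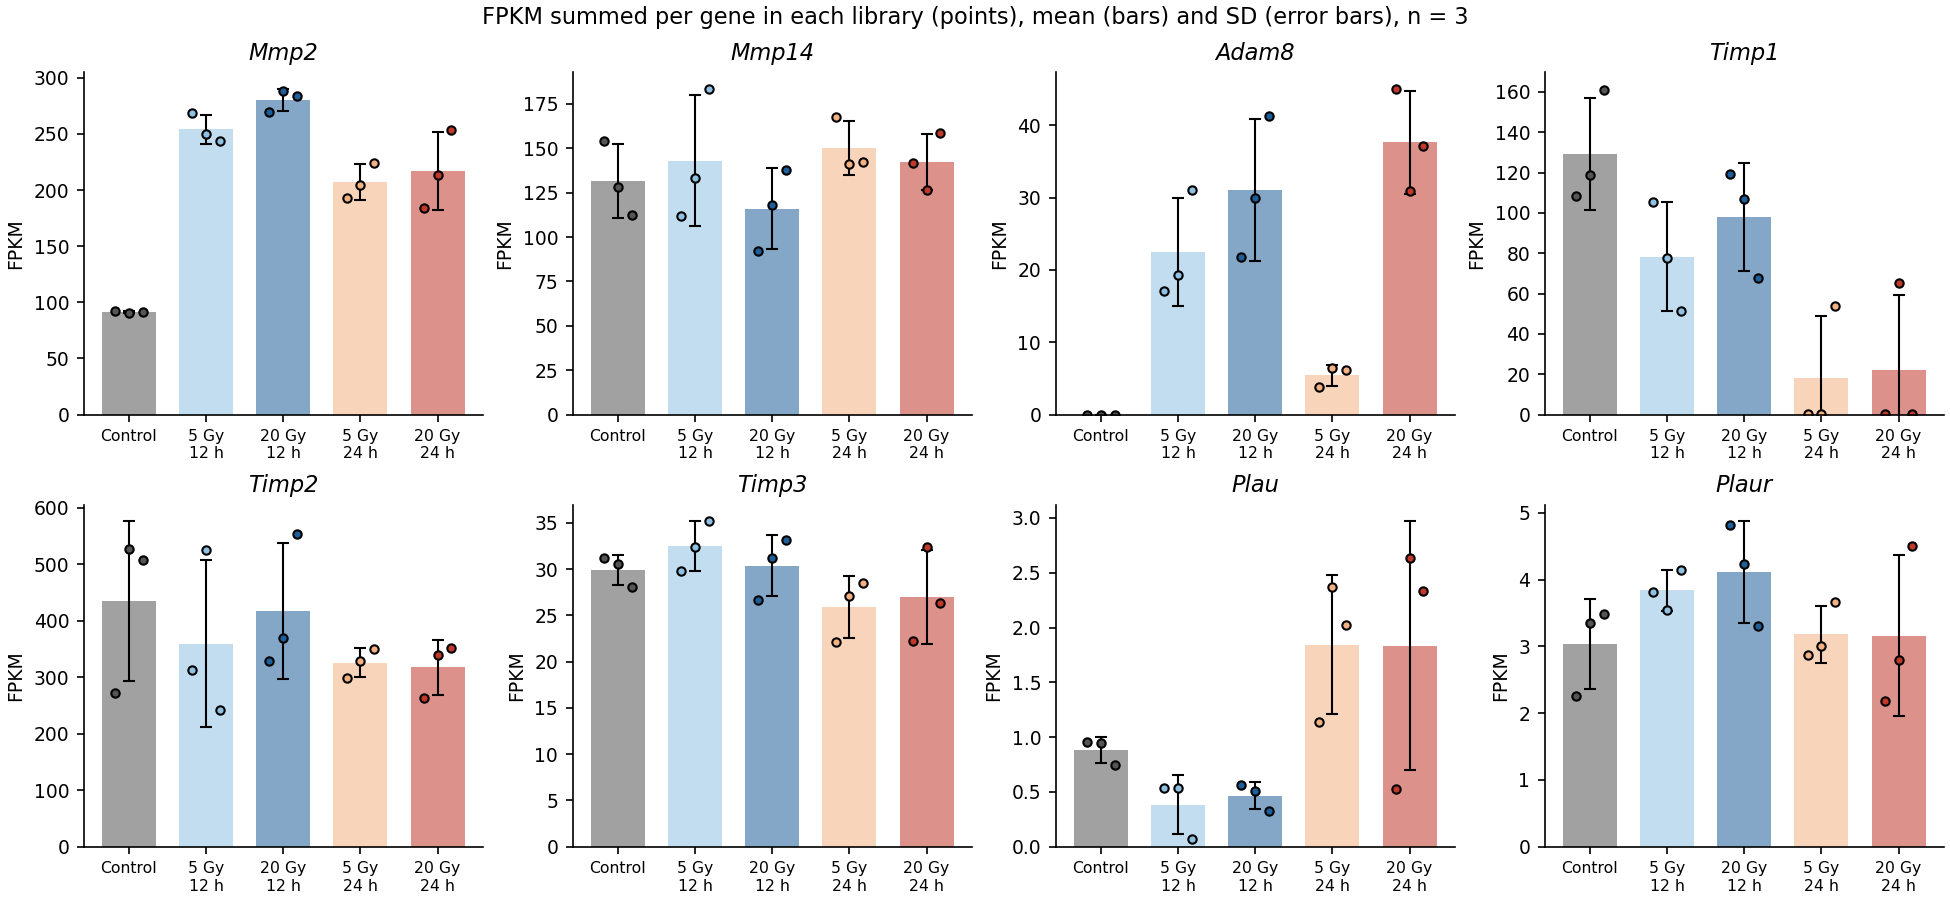
FPKM summed per gene (vertical axes, each from 0) for the 8 genes that passed the filter, in the control group and the 4 exposed groups. Points are libraries, bars means and error bars SDs. Mmp2 is higher in all 12 exposed libraries than in the controls (at most 92.1 FPKM), while Timp1 lies below 0.31 FPKM in 4 of the 6 libraries at 24 h.

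Each group was compared on log2(FPKM + 1) with limma, fitted over the 17895 genes that passed the filter. A change was called at a Benjamini-Hochberg adjusted p under 0.05 over all genes and a fold change of at least 1.5. Against the control group, Mmp2 and Adam8 rose in every exposed group and Timp1 fell at 24 h. Adam8 was listed at 0 in the controls and passed the filter only through the exposed groups. It is 1 of the 2 genes counted as higher in each of these comparisons. At 12 h after 5 Gy, 2 of the 8 genes were higher and 0 lower, beside a background of 9.94% of all genes called. At 12 h after 20 Gy the same count, 2 higher and 0 lower, stood beside 8.54%. At 24 h, 2 genes were higher and 1 lower after either dose, beside backgrounds of 41.3% after 5 Gy and 40.3% after 20 Gy. The median log2 difference of the 8 genes was 0.11 after 5 Gy and -0.01 after 20 Gy at 12 h (all genes, 0.03 and 0.01), and 0.13 and 0.07 at 24 h (all genes, -0.05 and -0.14). The genes therefore did not share a direction, and they are described by role.

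Mmp2, gelatinase A, cuts the collagen IV of basement membranes. It was measured by a single annotated transcript of 13 exons and 3071 bases on chromosome 19 (15542765 to 15570611, minus strand, Rnor_6.0). The control libraries held 92.1, 90.2 and 91.5 FPKM. At 12 h the libraries held 269, 250 and 244 FPKM after 5 Gy, and 270, 288 and 284 FPKM after 20 Gy. Every 12 h library was above every control. At 24 h the values were 193, 205 and 224 FPKM after 5 Gy and 184, 214 and 254 FPKM after 20 Gy, so the exposed libraries stayed above the controls without overlap. On the log2 scale Mmp2 was 1.47 ± 0.10 (SE) higher at 12 h after 5 Gy (limma, adjusted p = 1.87e-06) and 1.61 ± 0.10 higher after 20 Gy (limma, adjusted p = 6.41e-07). At 24 h it was 1.17 ± 0.10 higher after 5 Gy (limma, adjusted p = 6.91e-07) and 1.23 ± 0.10 after 20 Gy (limma, adjusted p = 4.95e-07). The ratio of mean FPKM to the control was 2.79 and 3.08 at 12 h and 2.27 and 2.38 at 24 h. From 12 h to 24 h the difference was -0.30 after 5 Gy (limma, adjusted p = 0.0241) and -0.38 after 20 Gy (limma, adjusted p = 0.00606), both under the fold limit. The doses differed by 0.14 at 12 h (limma, adjusted p = 0.842) and by 0.06 at 24 h (limma, adjusted p = 0.825), with an SE of 0.10. Exact permutation tests on 3 against 3 libraries cannot go below 0.1, and they gave 0.1 for Mmp2 in each comparison with the control.

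Mmp14, the membrane-type metalloproteinase that activates proMMP2 at the cell surface, lies on chromosome 15 (33074441 to 33083655, plus strand). Its annotated transcript of 10 exons carried 68.0% of the summed FPKM and 4 unnamed transcripts the rest. The libraries held 154, 128 and 113 FPKM in the control group, 112, 133 and 184 at 12 h after 5 Gy, and 92.1, 118 and 138 at 12 h after 20 Gy. At 24 h they held 168, 141 and 142 FPKM after 5 Gy and 142, 126 and 159 after 20 Gy. Every exposed group overlapped the controls. The log2 differences from the control were 0.10, -0.19, 0.20 and 0.12 in the order 5 Gy and 20 Gy at 12 h, then 5 Gy and 20 Gy at 24 h, each with an SE of 0.19, and none passed the test (limma, adjusted p from 0.381 to 0.766). Mmp2 rose in the same libraries.

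Adam8 lies on chromosome 1 (212317848 to 212330349, minus strand) and its annotated transcript has 24 exons and 2788 bases. The assembled locus also held the names Tubgcp2, a gene of the gamma-tubulin complex, and LOC103691261, so its 14 unnamed transcripts belonged to no gene by the rule. The annotated transcript was listed at 0 in the control libraries. It held 17.0, 19.4 and 31.0 FPKM at 12 h after 5 Gy, and 21.8, 30.0 and 41.3 FPKM at 12 h after 20 Gy. At 24 h it held 3.75, 6.39 and 6.11 FPKM after 5 Gy and 45.1, 30.9 and 37.1 FPKM after 20 Gy. All 12 exposed libraries were above the listed 0, and at 24 h the doses did not overlap. Adam8 was called higher than the control in each exposed group (limma, adjusted p = 5.32e-07 and 1.67e-07 at 12 h, 1.89e-06 and 6.40e-09 at 24 h, with 5 Gy first). No fold is given against a group listed at 0, and Adam8 passed the filter only through the exposed groups.

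The comparison was repeated with every transcript of the locus that overlapped Adam8, an alternative chosen after the values were seen. These 11 transcripts held 0.936, 1.08 and 0.905 FPKM in the control libraries, all of it on unnamed transcripts, and 24.7 to 42.1 FPKM at 12 h after 5 Gy, 33.7 to 63.0 at 12 h after 20 Gy, 15.5 to 15.6 at 24 h after 5 Gy and 39.7 to 47.1 at 24 h after 20 Gy. The ratio of mean FPKM to the control was 32.8 at 12 h and 15.9 at 24 h for the lower dose, and 49.8 and 43.7 for the higher. The annotated transcript of the neighbour Tubgcp2 had means of 6.71 to 7.83 FPKM in the 5 groups. Unnamed transcripts over Tubgcp2 had means of 9.26 to 12.9 FPKM. Adam8 is also known from myeloid cells, and of 10 microglia and macrophage markers, 1 had a mean of at least 0.5 FPKM. Their sum was 4.91 to 9.24 FPKM in the controls, 4.30 to 5.84 at 12 h and 1.14 to 1.94 at 24 h. Cd14 carried most of it, with means of 4.03 FPKM in the controls, 4.45 and 4.68 at 12 h, and 1.06 and 1.46 at 24 h. Near 0, Csf1r went the other way, from 0.0158 FPKM in the controls to 0.0961 and 0.110 at 24 h. Aif1 went from 0.0745 to 0.149 and 0.0432. The sum of 7 astrocyte markers was 13.9 to 17.0 FPKM in the controls and 21.0 to 36.4 in the exposed groups, without overlap, as for Mmp2 and Adam8. Aldh1l1 carried it, with means of 9.52 FPKM in the controls and 20.8 to 24.1 in the exposed groups, while Aqp4 was listed at 0 in all 15 libraries and Gfap reached at most 0.182 FPKM. The part of either sum in the results was not tested.

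**Figure D2:**
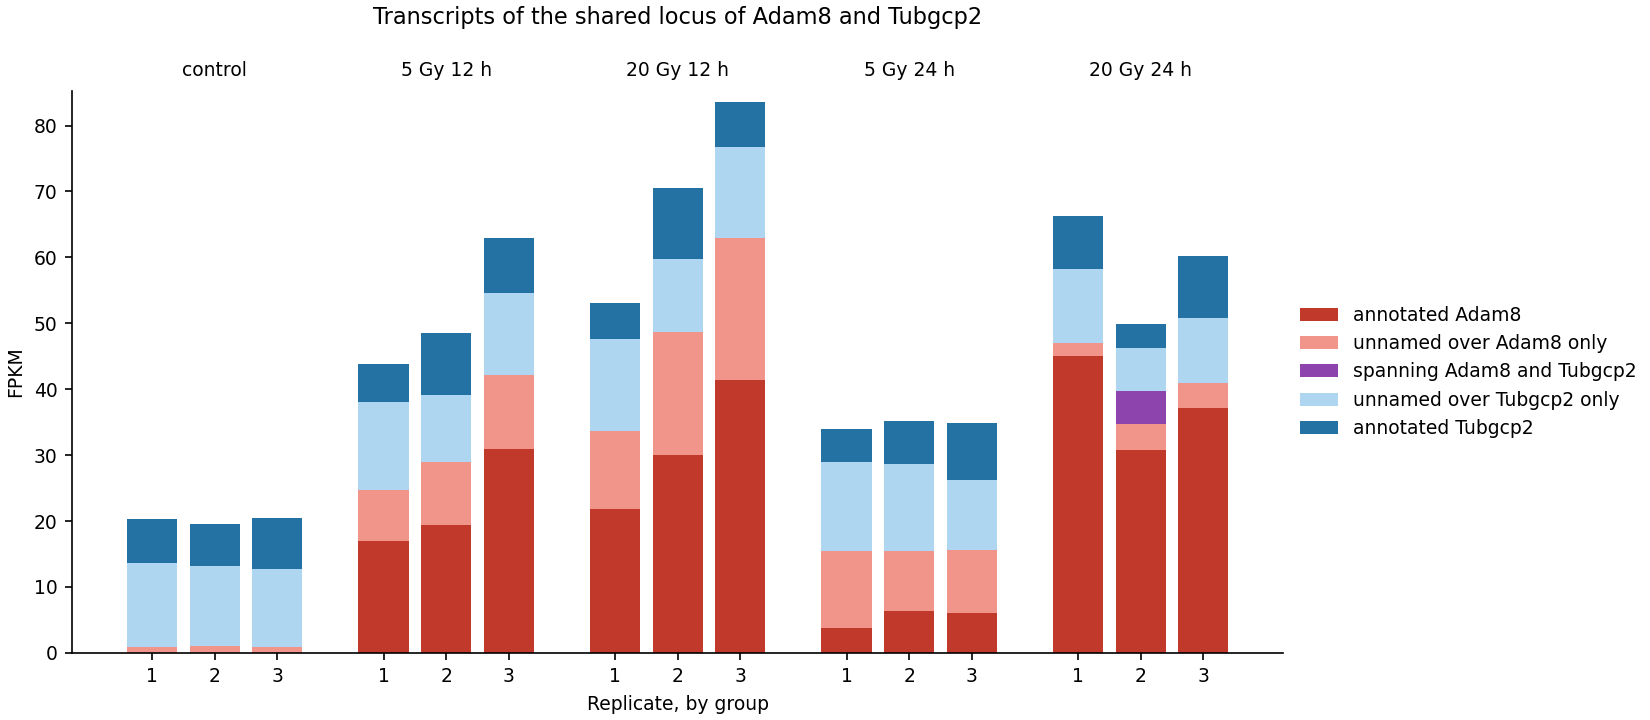
FPKM of the transcripts of the locus shared by Adam8 and Tubgcp2 (vertical axis), stacked by the gene a transcript overlaps, for each library (horizontal axis, replicate number by group). The red Adam8 segments are absent from the controls and smallest at 24 h after 5 Gy among the exposed groups, while the dark blue segments of annotated Tubgcp2 lie between 3.52 and 10.8 FPKM in all libraries.

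Adam8 was the only 1 of the 8 genes that differed between doses. At 12 h, 0 of the 8 genes differed between 20 Gy and 5 Gy (background 0.123%), and the count was also 0 at an unadjusted p under 0.05. Over all overlapping transcripts, Adam8 at 12 h was 0.58 ± 0.20 higher after 20 Gy (limma, unadjusted p = 0.0141, adjusted p = 0.522), which did not pass. At 24 h, 1 of the 8 was called (background 2.42%): Adam8 was 2.60 ± 0.26 higher on the log2 scale after 20 Gy than after 5 Gy (limma, adjusted p = 0.000165), a ratio of mean FPKM of 6.95. Over all overlapping transcripts the difference was 1.40 ± 0.20 (limma, adjusted p = 0.00253) and the ratio 2.74. From 12 h to 24 h Adam8 fell by 1.85 ± 0.26 after 5 Gy on the log2 scale (limma, adjusted p = 5.23e-05), and was 0.30 ± 0.26 higher after 20 Gy, which did not pass (limma, adjusted p = 0.340). Over all overlapping transcripts these differences were -0.96 ± 0.20 after 5 Gy (limma, adjusted p = 0.00142), a ratio of mean FPKM of 0.486 against 0.241 for the annotated transcript, and -0.14 ± 0.20 after 20 Gy, where the sign turned (limma, adjusted p = 0.574). The difference between these changes was called for 1 of the 8 genes (background 0.553%), again Adam8, at 2.15 ± 0.36 (limma, adjusted p = 0.0211). That call was lost over all overlapping transcripts, where the difference was 0.82 ± 0.29 (limma, adjusted p = 0.252). It was also lost without replicate 1 or 2 of 20 Gy at 12 h or replicate 1 of 20 Gy at 24 h (adjusted p of 0.0532, 0.0573 and 0.0538). At 24 h after 5 Gy, 29.2% to 37.9% of the bases of the locus lay on unnamed transcripts over Adam8 and 8.54% to 14.5% on the annotated transcript. At 24 h after 20 Gy the shares were 4.82% to 8.63% and 52.6% to 62.2%.

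Timp1, a secreted inhibitor of most matrix metalloproteinases, lies on chromosome X (1364786 to 1369384, minus strand) and its annotated transcript has 6 exons and 740 bases. The control libraries held 108, 119 and 161 FPKM. At 12 h the libraries held 106, 77.8 and 51.5 FPKM after 5 Gy and 119, 107 and 67.7 FPKM after 20 Gy. At 24 h they held 0.298, 0.239 and 53.8 FPKM after 5 Gy and 0.249, 65.3 and 0.300 FPKM after 20 Gy. The 24 h libraries thus fell into values below 0.31 FPKM and values above 50 FPKM, and all were below the controls. The log2 difference of Timp1 from the control was -4.85 ± 1.5 at 24 h after 5 Gy (limma, adjusted p = 0.0136) and -4.76 ± 1.5 after 20 Gy (limma, adjusted p = 0.0154). At 12 h the differences of -0.76 after 5 Gy and -0.42 after 20 Gy did not pass (limma, adjusted p = 0.782 and 0.894). The calls at 24 h were lost when a library below 0.31 FPKM was left out. The value was -3.96 without replicate 1 and -3.93 without replicate 2 of 5 Gy (adjusted p = 0.0600 and 0.0607), and -3.79 without replicate 1 and -3.82 without replicate 3 of 20 Gy (adjusted p = 0.0690 and 0.0675).

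Timp1 shared its assembled locus with Araf, a kinase gene, and 10 of the 12 transcripts there were unnamed. Of these, 5 ran over both genes. They carried 9.90% to 18.7% of the bases of the locus (FPKM times length) in the control libraries, 3.93% to 18.1% at 12 h and 27.2% to 81.8% at 24 h. In the 4 libraries with Timp1 below 0.31 FPKM their share was 47.8% to 81.8%, and in the other 2 libraries at 24 h it was 39.5% and 27.2%. With every transcript that overlapped Timp1 summed, an alternative chosen after the values were seen, the 24 h libraries held 31.0, 23.4 and 72.7 FPKM after 5 Gy and 26.4, 80.7 and 44.9 FPKM after 20 Gy, against 118, 138 and 184 in the controls. Timp1 was also called lower on that sum, with log2 differences of -1.91 ± 0.46 after 5 Gy (limma, adjusted p = 0.00285) and -1.63 ± 0.46 after 20 Gy (limma, adjusted p = 0.00774), which are ratios of mean FPKM of 0.289 and 0.345. The size of the fall therefore depended on how the reads of the locus were shared among transcripts, and its direction did not under this alternative.

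**Figure D3:**
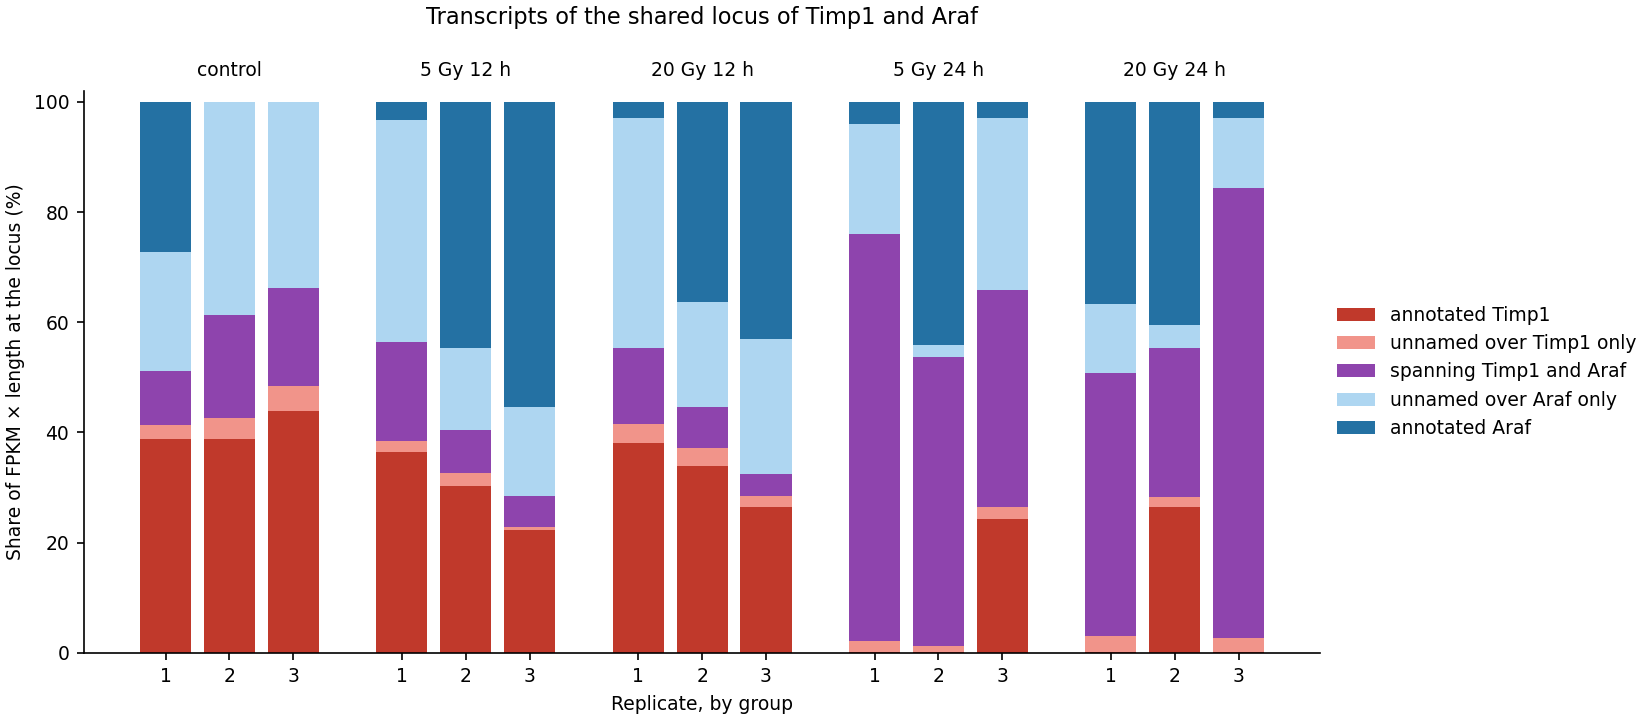
Share of FPKM times transcript length at the locus of Timp1 and Araf (vertical axis, percent), by the gene a transcript overlaps, for each library (horizontal axis, replicate number by group). The purple share of transcripts that run over both genes is 27.2% to 81.8% at 24 h, and the red annotated Timp1 share is near 0 in 4 of these 6 libraries.

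Timp2 inhibits metalloproteinases and also links proMMP2 to MMP14 on the cell surface. On chromosome 10 (107338465 to 107386072, minus strand), its annotated transcript carried 67.2% of the sum and 4 unnamed transcripts the rest. The libraries held 272, 526 and 507 FPKM in the control group, 312, 525 and 241 at 12 h after 5 Gy, and 328, 369 and 554 at 12 h after 20 Gy. At 24 h they held 298, 328 and 349 FPKM after 5 Gy and 262, 339 and 351 after 20 Gy. The groups overlapped throughout. The log2 differences from the control ran from -0.40 to -0.04 with an SE of 0.30, and none passed (limma, adjusted p from 0.268 to 0.955). The annotated transcript alone varied from 63.8 to 421 FPKM between libraries, a wider range than the sum.

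Timp3, an inhibitor that stays bound to the matrix, lies on chromosome 7 (23544215 to 23594133, minus strand). Its annotated transcript of 7 exons gave 0.859% of the sum and was above 0 in the 3 control libraries only, and an unnamed transcript of 5 exons and 4576 bases carried the rest. The group means of the sum were 29.9 ± 1.64 FPKM in the controls, 32.5 ± 2.73 and 30.4 ± 3.32 at 12 h after 5 Gy and 20 Gy, and 25.9 ± 3.34 and 27.0 ± 5.08 at 24 h. Timp3 passed no comparison. The nearest was 24 h against 12 h after 5 Gy, where the libraries did not overlap and the log2 difference was -0.32 ± 0.13 (limma, adjusted p = 0.0587).

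Plau, urokinase, is the enzyme that turns plasminogen into plasmin, and lies on chromosome 15 (3644769 to 3650819, minus strand) with a single annotated transcript of 11 exons and 1875 bases. Its reads were few, the equivalent of 6 to 247 reads of 150 bases per library (median 62.9). The control libraries held 0.954, 0.949 and 0.748 FPKM. At 12 h they held 0.534, 0.540 and 0.0724 FPKM after 5 Gy and 0.560, 0.513 and 0.326 after 20 Gy, all below the controls. At 24 h they held 1.14, 2.37 and 2.02 FPKM after 5 Gy, all above the controls, and 0.531, 2.64 and 2.34 after 20 Gy, with replicate 1 below them. No comparison with the control passed: the log2 differences were -0.46 and -0.36 at 12 h (limma, adjusted p = 0.289 and 0.436) and 0.57 and 0.49 at 24 h (limma, adjusted p = 0.1 and 0.151), each with an SE of 0.28.

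From 12 h to 24 h after 5 Gy, 3 of the 8 genes were called, 1 higher and 2 lower, beside a background of 36.4%. After 20 Gy there were 2, 1 higher and 1 lower, beside 36.3%. Plau was the gene that rose, by 1.03 ± 0.28 after 5 Gy (limma, adjusted p = 0.00745) and 0.86 ± 0.28 after 20 Gy (limma, adjusted p = 0.0210) on the log2 scale, which understates the change of a gene near 1 FPKM. The ratio of mean FPKM was 4.82 and 3.94. The libraries of the 2 times did not overlap after 5 Gy, and after 20 Gy replicate 1 at 24 h lay among those at 12 h. Timp1 fell in both, with log2 differences of -4.10 ± 1.5 (limma, adjusted p = 0.0342) and -4.34 ± 1.5 (limma, adjusted p = 0.0263), and Adam8 fell after 5 Gy. Over all overlapping transcripts, the difference of Timp1 was -1.11 after 5 Gy, which did not pass (limma, adjusted p = 0.0546), and -1.18 after 20 Gy (limma, adjusted p = 0.0428). After 5 Gy the call of Timp1 was also lost on leaving out each of the libraries at 12 h in turn, or replicate 1 or 2 at 24 h (adjusted p from 0.0529 to 0.130), and with no filter, a fit of only the groups compared, the highest transcript of each gene or annotated transcripts alone (adjusted p = 0.0546, 0.0584, 0.0553 and 0.0546). It was lost after 20 Gy without replicate 1 or 2 at 12 h or replicate 1 or 3 at 24 h (adjusted p from 0.0631 to 0.109). Leaving out replicate 3 of 20 Gy at 12 h, or replicate 2 or 3 of 20 Gy at 24 h, ended the call of Plau after 20 Gy (0.79, 0.63 and 0.69, with adjusted p = 0.0617, 0.0910 and 0.0832). Without replicate 1 of 20 Gy at 24 h, Plau was called higher than the control at 0.89 (limma, adjusted p = 0.00296).

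Plaur, the receptor that anchors urokinase to the cell, lies on chromosome 1 (81328183 to 81344708, plus strand). Both of its annotated transcripts were listed at 0 in every library, and the sum came from 3 unnamed transcripts of the locus. The sums were 2.26, 3.36 and 3.49 FPKM in the controls, 3.82, 3.54 and 4.15 at 12 h after 5 Gy and 4.81, 4.24 and 3.30 at 12 h after 20 Gy. At 24 h they were 2.87, 3.01 and 3.66 FPKM after 5 Gy and 2.18, 2.80 and 4.51 after 20 Gy. The log2 differences from the control were 0.27 and 0.35 at 12 h and 0.06 and 0.02 at 24 h, with an SE of 0.19, and none passed (limma, adjusted p from 0.258 to 0.939). The libraries at 12 h after 5 Gy lay just above the controls, and the other exposed groups overlapped them. The transcripts that carried the sum changed between groups. A transcript of 8 exons and 1040 bases had a mean of 3.03 FPKM in the controls, 0.0288 and 0 at 12 h after 5 Gy and 20 Gy, and 2.18 and 2.43 at 24 h. Transcripts of 6 exons and 9 exons were at 0 in the controls and had means of 1.89 and 1.92 FPKM at 12 h after 5 Gy and 2.96 and 1.15 after 20 Gy. The assembled transcripts thus differed between groups more than their sum did.

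**Figure D4:**
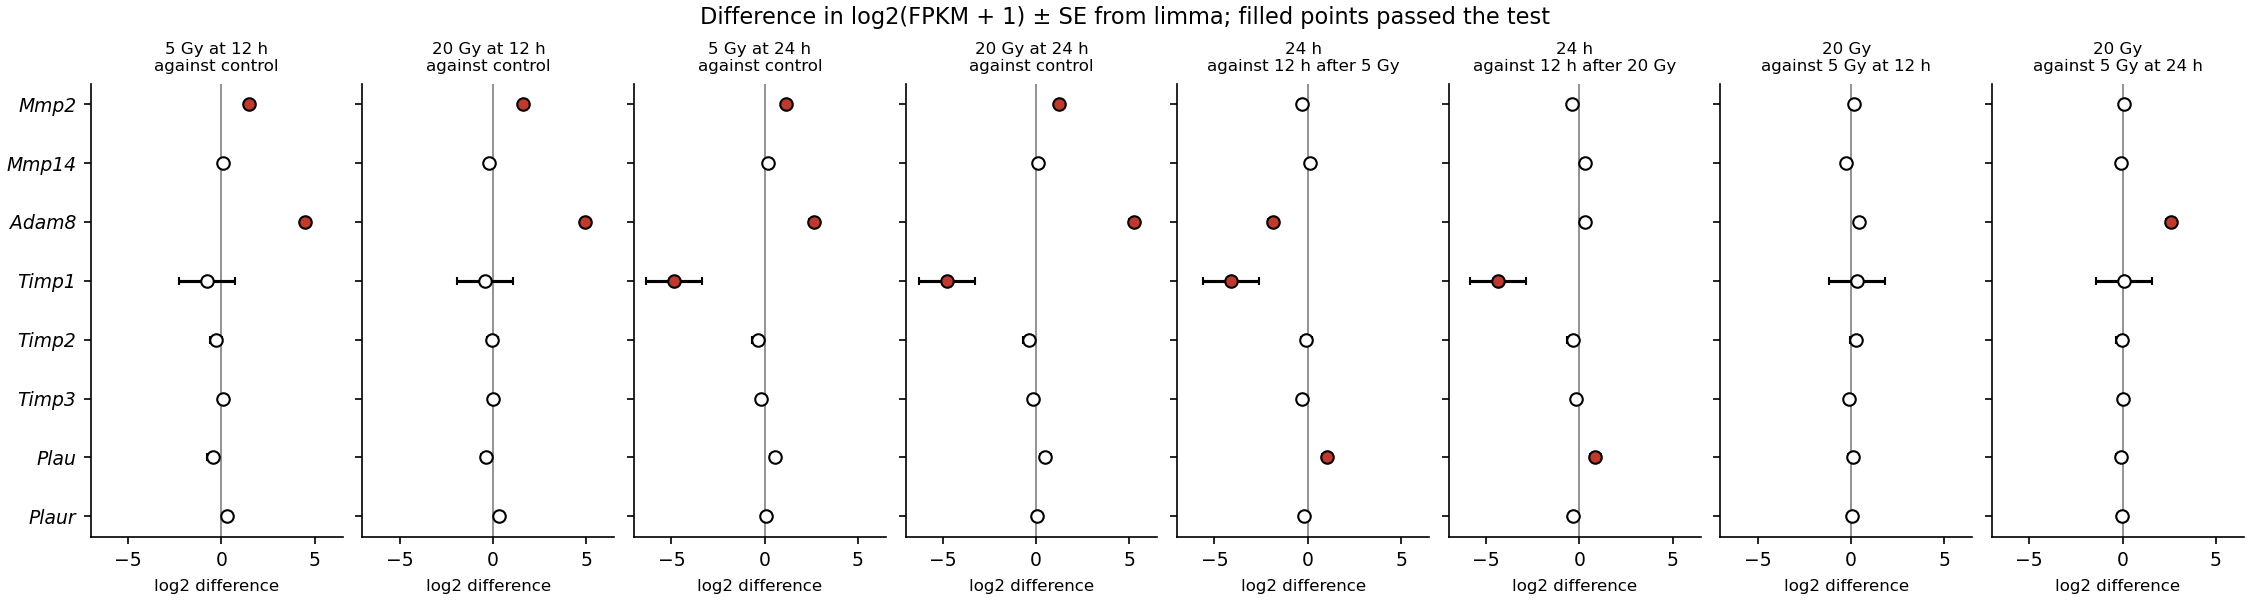
Difference in log2(FPKM + 1) from limma (horizontal axes) with its SE (error bars, hidden where smaller than the point) for the 8 genes (rows) in 8 comparisons (panels). Filled points passed the test. Adam8 and Mmp2 are filled to the right in all 4 comparisons with the control, Timp1 to the left at 24 h with an SE of 1.5, and Plau to the right from 12 h to 24 h.

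Across the 15 libraries, the genes whose log2(FPKM + 1) was most like each member were listed as a description, over points that share groups and libraries. Mmp2 was most like Phlda3 (Pearson r = 0.975), Ccng1 (0.972) and Cntrl (0.961). Ccng1, cyclin G1, had means of 110 FPKM in the controls, 432 and 536 at 12 h after 5 Gy and 20 Gy, and 300 and 394 at 24 h. Adam8 was most like Cib2 (0.956), Abcb4 (0.946) and Ccng1 (0.943), so that Ccng1 stood among the 3 nearest genes of both. Mmp2 and Adam8 themselves had an r of 0.894, the highest among the members. Plau was most like Runx1 (0.921), Hk2 (0.920) and AABR07025295.1 (0.919). Timp1 was most like Txnl4b (0.949), Akr1c14 (0.910) and Mrpl28 (0.899), and Timp3 like Bscl2 (0.893), Sesn1 (0.840) and Dhrs7 (0.817). The nearest genes were Mcrip2 (0.898), Fgfr1 (0.864) and Twf2 (0.860) for Mmp14, LOC103690108 (0.911), Loxl3 (0.828) and Timm29 (0.823) for Plaur, and LOC103689971 (0.780), AABR07036007.1 (0.734) and Leo1 (0.723) for Timp2, the weakest.

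The other genes of the system were examined in 9 lists of 149 genes, of which 114 passed the filter. The percentages beside the counts are the shares of all genes called in either direction. Among 13 other plasminogen system genes tested, 2 were lower at 12 h after 5 Gy (9.94% of all genes called) and 3 after 20 Gy (8.54%), with none higher. At 24 h, 9 were lower and 1 higher after 5 Gy (41.3%), and 10 lower and 1 higher after 20 Gy (40.3%). The list medians at 24 h were -0.92 and -1.22 (all genes, -0.05 and -0.14). Plat, the tissue-type activator, had 39.9 ± 0.716 FPKM in the controls and 22.6 ± 0.132 at 12 h after 20 Gy, a log2 difference of -0.79 ± 0.13 (limma, adjusted p = 0.00103). S100a10 and Anxa2, whose products form a surface receptor for plasminogen, were both lower at 24 h after either dose. S100a10 had 506 ± 20.6 FPKM in the controls and 133 ± 23.1 at 24 h after 5 Gy (log2 difference -1.94 ± 0.16, limma, adjusted p = 5.48e-07). Anxa2 was already lower at 12 h after 5 Gy, at 549 ± 29.7 against 836 ± 77.4 FPKM (log2 difference -0.60 ± 0.08, limma, adjusted p = 0.000374), and under the fold limit by quantile normalization (-0.53), by rescaling to TPM (-0.55), or without control replicate 3 (-0.54) or replicate 2 of 5 Gy at 12 h (-0.56). Mrc2, an endocytic collagen receptor that binds the urokinase receptor, had 174 ± 32.3 FPKM in the controls and 60.7 ± 9.20 at 24 h after 20 Gy (log2 difference -1.49 ± 0.14, limma, adjusted p = 1.5e-06), but the transcript with the highest mean FPKM alone gave 1.41, not called. The gene that rose was Plg, plasminogen itself, from at most 0.0785 FPKM in the controls to 1.29, 2.75 and 1.74 FPKM at 24 h after 5 Gy (log2 difference 1.46 ± 0.20, limma, adjusted p = 3.27e-05). That level is low, and Plg passed the filter only through the 24 h groups, since its means elsewhere were 0.0400 to 0.0624 FPKM. It was not tested with a filter at 1 FPKM, with its highest transcript or annotated transcripts alone, or without replicate 2 of 5 Gy at 24 h.

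Among 7 other metalloproteinase genes tested, none was called at 12 h (9.94% and 8.54% of all genes called after 5 Gy and 20 Gy). At 24 h, Mmp13, a collagenase, was higher after 5 Gy at 2.15 ± 0.292 FPKM and after 20 Gy at 2.00 ± 0.740, against 0.389 ± 0.297 in the controls (log2 differences 1.20 and 1.10, limma, adjusted p = 9.46e-05 and 0.000200). Its means at 12 h were 0.0700 and 0.0407 FPKM, so it passed the filter only through the 24 h groups, and a filter at 1 FPKM left it out. Mmp24, a membrane-type enzyme, was lower after 5 Gy (-0.71 ± 0.11, limma, adjusted p = 7.72e-05). These were 2 of 7 genes called after 5 Gy and 1 after 20 Gy, beside 41.3% and 40.3% of all genes. Mmp9, the other gelatinase, reached at most 0.0583 FPKM in any library and was named for its kinship with Mmp2, after its values were seen. Among 9 further inhibitors and activators, none was called at 12 h either, beside the same shares. At 24 h, 1 was higher and 1 lower after 5 Gy (41.3% of all genes called), and 1 higher and 2 lower after 20 Gy (40.3%). At 24 h, Pcsk5, a proprotein convertase, was higher after 5 Gy and 20 Gy (1.10 and 1.41 ± 0.22, limma, adjusted p = 0.000837 and 0.000129), a call that was lost with annotated transcripts alone (log2 differences 0.12 and 0.00280) and, after 5 Gy, with its highest transcript (0.53). Pcolce, an enhancer of procollagen processing, was lower (-0.94 and -1.13 ± 0.18, limma, adjusted p = 0.000662 and 0.000160). A2m, a protease inhibitor, was lower after 20 Gy (-1.78 ± 0.60, limma, adjusted p = 0.0213). That call was lost without control replicate 2 or 3 or replicate 1 of 20 Gy at 24 h (limma, adjusted p = 0.0548, 0.0667 and 0.102). Timp4, which completes the TIMP family and was also named after its values were seen, ranged from 22.5 to 49.5 FPKM and was not called against the control.

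Of 20 other ADAM and ADAMTS genes tested, 0 were called at 12 h after 5 Gy (9.94% of all genes called) and 3 were lower after 20 Gy (8.54%). At 24 h, 3 were higher and 5 lower after 5 Gy, and 3 higher and 7 lower after 20 Gy. These 8 and 10 of 20 genes were close to the 41.3% and 40.3% of all genes called, so the counts are no result about the list. The 3 lower at 12 h became 1 to 3 with single libraries left out and 0 with annotated transcripts alone (13 genes tested). With a fold change of at least 2, those lower at 24 h became 0 after 5 Gy and 1 after 20 Gy. Adamts1, which cuts the proteoglycan versican, rose at 24 h. Its controls held 2.92, 2.83 and 4.29 FPKM, and at 24 h the libraries held 31.1, 42.4 and 57.2 FPKM after 5 Gy and 18.7, 44.9 and 41.6 after 20 Gy. These were log2 differences of 3.33 ± 0.36 and 2.97 ± 0.36 (limma, adjusted p = 5.11e-06 and 1.45e-05). Adamts5, an aggrecanase, rose by 1.65 and 1.48 ± 0.33 (limma, adjusted p = 0.000841 and 0.00193). Adam15 fell, with log2 differences of -0.87 and -1.03 ± 0.13 (limma, adjusted p = 9.13e-05 and 2.38e-05). Of 16 genes listed as cathepsins and other matrix-degrading enzymes, none was higher in any exposed group. At 24 h, 2 were lower after 5 Gy and 3 after 20 Gy, below the 41.3% and 40.3% of all genes called. The list also held Cst3 and Cstb, whose products inhibit cathepsins, so its counts are not of enzymes alone. The 2 genes lower after 5 Gy were Cstb and Ctsk. Cstb had 190.5 ± 16.2 FPKM in the controls and 94.3 ± 2.88 at 24 h after 5 Gy. Ctsk, the collagen-degrading cathepsin K, fell from 82.9 ± 4.97 FPKM to 42.3 ± 1.60 after 5 Gy and 40.6 ± 5.42 after 20 Gy.

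**Figure D5:**
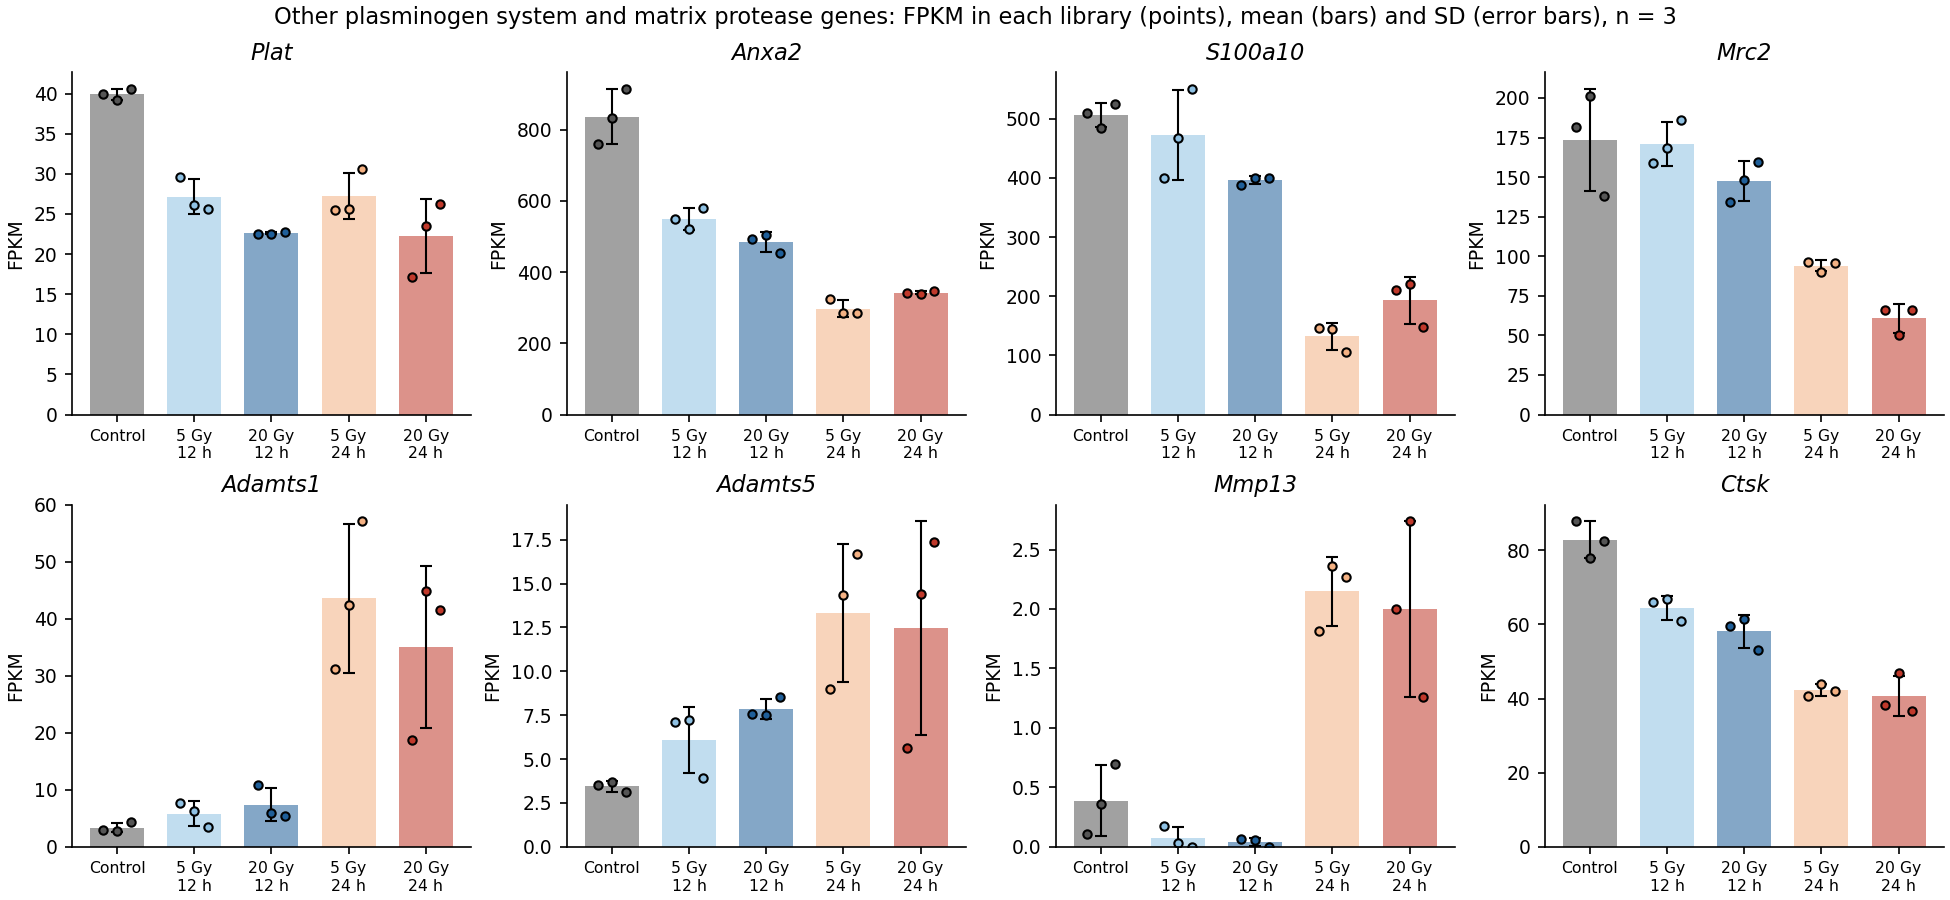
FPKM (vertical axes, each from 0) of plasminogen system and matrix protease genes named from the lists, in the control group and the 4 exposed groups. Points are libraries, bars means and error bars SDs. Plat is at 39.2 to 40.6 FPKM in the controls and at most 30.6 in the exposed libraries, and Adamts1 is at 18.7 to 57.2 FPKM at 24 h.

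Transcripts of many matrix proteins that these enzymes can cut were lower at 24 h. Of 15 basement membrane and interstitial substrates tested, 2 were higher and 3 lower at 12 h after 5 Gy (9.94% of all genes called). After 20 Gy, 2 were higher and 2 lower (8.54%). At 24 h, 1 was higher and 10 lower after 5 Gy, and 1 higher and 14 lower after 20 Gy, with medians of -0.88 and -1.12, beside 41.3% and 40.3% of all genes called. With a fold change of at least 2 those lower became 5 and 9, and with annotated transcripts alone 6 and 8 of 10 tested. Col4a2, a chain of the basement membrane collagen that MMP2 cuts, had 147 ± 14.3 FPKM in the controls, 37.3 ± 3.14 at 24 h after 5 Gy and 30.8 ± 6.80 after 20 Gy (log2 differences -1.95 and -2.24 ± 0.14, limma, adjusted p = 1.38e-07 and 4.65e-08), and its annotated transcripts alone did not pass the filter. Dcn, decorin, was lower at 12 h (-0.74 and -0.81 ± 0.12, limma, adjusted p = 0.000960 and 0.000655), and is also among the fibroblast markers above. Lama5, a laminin chain of vessel basement membranes, was the gene that was higher at both times, from 1.12 ± 0.0641 FPKM to 2.86 ± 0.299 and 3.84 ± 0.671 at 12 h and 5.30 ± 0.207 and 5.35 ± 1.36 at 24 h. Agrn, the proteoglycan agrin, was the other gene higher at 12 h (0.61 and 0.60 ± 0.14, limma, adjusted p = 0.00782 and 0.0102). Both calls of Agrn were lost without control replicate 3 (0.51 and 0.50), without replicate 3 of the exposed group (0.525 and 0.4995) and with its highest transcript (0.48 and 0.60). At 24 h Agrn was below the controls, at 6.05 ± 0.349 and 5.05 ± 0.942 against 12.1 ± 1.53 FPKM. Of 10 integrins and surface partners, 1 was lower at 12 h after either dose, and 2 were higher and 2 lower at 24 h, which is close to the share of all genes at both times (9.94% and 8.54%, 41.3% and 40.3%). Lrp8 was lower at 12 h (log2 differences -0.96 and -0.89) and higher at 24 h (1.83 and 1.62). With its highest transcript the 12 h calls were lost (-0.07 and -0.06). Itgb5 (-0.82 and -1.31) and Itgb1 (-0.77 and -0.88) were lower at 24 h. The Itgb5 calls were lost with annotated transcripts alone. They were also lost with its highest transcript, where the sign turned after 20 Gy (-0.39 and 0.94). The Itgb1 call after 5 Gy was lost by quantile normalization. It was also lost without control replicate 3 or replicate 1 of 5 Gy at 24 h (limma, adjusted p = 0.0698 and 0.0721). Egfr, a growth factor receptor, rose from 24.8 ± 3.82 FPKM to 56.7 ± 4.77 and 69.7 ± 10.2 at 24 h (log2 differences 1.17 and 1.46 ± 0.16, limma, adjusted p = 3.13e-05 and 5.05e-06), a call that was lost with annotated transcripts alone (0.07 and 0.05).

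Of 14 transcription factor genes (subunits of AP-1 and NF-kB, Atf3, and the ETS factors Ets1 and Ets2), 5 were lower at 12 h after 5 Gy and 4 after 20 Gy, with none higher (9.94% and 8.54% of all genes called). At 24 h, 9 were higher and 2 lower after either dose (41.3% and 40.3%). Fos had 9.55, 9.75 and 11.4 FPKM in the controls, means of 1.65 ± 0.795 and 3.42 ± 1.69 at 12 h, and 137 ± 2.98 and 176 ± 20.9 at 24 h, with the lower dose first. Junb had 64.2 ± 1.15 FPKM in the controls, 19.9 ± 6.35 and 36.4 ± 8.84 at 12 h, and 413 ± 30.5 and 376 ± 26.8 at 24 h. The 2 genes lower at 24 h were the AP-1 subunits Jund and Fosl1. Jund had 89.9 ± 4.37 FPKM in the controls and 24.0 ± 7.99 and 37.7 ± 9.96 at 24 h. Fosl1 had 9.98 ± 2.12 FPKM in the controls and 3.23 ± 1.10 and 3.36 ± 1.46 at 24 h. The Fosl1 calls were lost with its highest transcript (-0.24 and -0.17). Of 10 heat shock genes, 1 was lower at 12 h after 5 Gy and 0 were called at 12 h after 20 Gy (9.94% and 8.54% of all genes called). At 24 h, 8 were higher after 5 Gy and 10 after 20 Gy (41.3% and 40.3%). Plaur, whose window holds the AP-1 motif shown above, was called in no comparison on the sum of its transcripts, but was called with its highest transcript alone, as given below. A link between these factors and the members was not tested.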

How the data were processed

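The deposited table held FPKM values per assembled transcript. Per the labels and the study's methods, the authors trimmed 150-base reads with Trimmomatic, checked them with FastQC, aligned them to Rnor_6.0 with HISAT2 (2.0.13) and assembled transcripts with StringTie; their kallisto and edgeR steps were not used here. Of 85322 transcripts in 40272 loci, 4738 unnamed transcripts in the 909 loci with several gene names were left unassigned, and the rest were summed to 37367 genes. Assembly can divide the reads of a locus differently in each library, which moves FPKM of single transcripts.

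Gene sums with a mean of at least 0.5 FPKM were tested as log2(FPKM + 1) with limma (3.58.1, R 4.3.3), with 1 mean per group, a variance trend and 10 residual degrees of freedom. This scale understates the change of low genes. The difference of changes between doses needed the adjusted p alone. Depth was read from FPKM steps: 69.7% to 78.1% of low values were whole multiples within 0.1 step. The median share over the steps tried was at most 20.2% in any library. The script was tested on simulated data.

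The members and lists were chosen with earlier results of these data known. From each list, at most 2 genes that rose and 2 that fell, by size of change among those called, were named per comparison with the control, and some are given here. Alternatives changed the pseudocount, filter, normalization, transcript sum, fit, fold limit, p adjustment and libraries. The sum of every overlapping transcript was added after the data were seen. A gene of the plasminogen list stays in its counts but is not reported here by name.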

Additional observations from a re-analysis of the deposited data

Results flagged for a closer look

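Plau lay below every control library at 12 h after 5 Gy and above every control library at 24 h after 5 Gy, so the 2 times stood on opposite sides of the control group. The difference between the times was tested and was 1.03 on the log2 scale (limma, adjusted p = 0.00745), while neither time passed against the control.

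Adam8 changed differently from 12 h to 24 h after the 2 doses. The difference between the changes was 2.15 on the log2 scale (limma, adjusted p = 0.0211), and 0.82 over all transcripts that overlapped the gene (limma, adjusted p = 0.252).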

How the results depend on the processing

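The counts of members called against the control kept within 1.5 times of their value under each alternative. For 24 h against 12 h after 20 Gy the count of 2 became 1 in a fit of only the groups compared and with a fold change of at least 2, and ran from 0 to 2 with single libraries left out. For the difference of changes the count of 1 became 0 in a fit of only the groups compared and over every overlapping transcript, and ran from 0 to 1 with single libraries left out. With the Plaur transcript of highest mean FPKM in place of the sum, the sign turned and Plaur was called. The differences from the control were -1.96 and -1.998 at 12 h after 5 Gy and 20 Gy (limma, adjusted p = 0.0286 and 0.029). From 12 h to 24 h they were 1.52 and 1.46 (limma, adjusted p = 0.033 and 0.0397). That transcript is the 8-exon one whose group means are given above. Quantile normalization called Plau higher than the control at 24 h after 5 Gy (0.66, adjusted p = 0.0361) and 20 Gy (0.67, adjusted p = 0.0349). Over all genes, the calls at 24 h after 5 Gy were 3674 higher and 3721 lower, and 4422 and 3063 after rescaling to TPM; after 20 Gy they were 3043 and 4176, and 3442 and 3446 by quantile normalization. A fit with the replicate number as a block gave the same counts of members called, 2, 2, 3 and 3 against the control. Deviations of same-numbered libraries correlated from -0.177 to 0.232 (median 0.00875), so the numbers were not taken to pair the samples. Low depth limits Plau, with the equivalent of 6 reads in its lowest library. Over the alternatives with every library, the plasminogen genes called lower at 24 h numbered 6 to 10 for the lower dose and 7 to 11 for the higher, the matrix substrates 5 to 11 and 8 to 15, and the transcription factor genes called higher 6 to 9 and 7 to 9. A fold change of at least 2 ended the calls of Mmp24, Pcolce, Adam15, Ctsk and Itgb5 at 24 h after 5 Gy, of Plg at 24 h after 20 Gy and of Itgb1 at 24 h. It also ended those of Plat at 12 h after 20 Gy, of Anxa2 and Lama5 at 12 h after 5 Gy, and of Dcn, Agrn and Lrp8 at 12 h.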
